A study of Rattus norvegicus with 42 samples.

Results

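Soleus and extensor digitorum longus (EDL) of the 3 control rats were compared by cap analysis of gene expression (CAGE). CAGE counts tags at the 5′ ends of capped RNAs, so that each tag marks a CAGE tag start site (CTSS), and clusters of CTSS are the transcription start site (TSS) peaks. All soleus and EDL libraries labelled as control were taken, 6 of the 42 libraries of the series, and all 9969 deposited peaks outside the mitochondrial genome, of 9971. The animals were mature Wistar rats that moved freely and were neither unloaded nor treated. Rats U6, U7 and U8 each gave both muscles, frozen from 1 side of the body, and all 6 libraries were sequenced in lane 1. The other 18 rats had been unloaded for 1, 3 or 7 days (D1, D3, D7) or had recovered for 1, 3 or 7 days after 7 days of unloading (R1, R3, R7).

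The soleus is a postural muscle made up mostly of slow oxidative fibres, and the EDL is a fast muscle of the lower leg. Fibre types differ in which isoforms of the contractile and calcium-handling proteins they make. The genes of the fast skeletal myosin heavy chains lie next to each other in 1 cluster, and Myh4 encodes the heavy chain of the fastest, glycolytic (IIB) fibres, Myh1 that of IIX fibres and Myh2 that of IIA fibres.

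The control libraries held 4488404 to 16652474 tags, and 63.8% to 87.7% of these lay in the peaks. Both libraries of rat U7 had the lowest shares. Levels are given as CPM of the tags in the tested peaks after TMM scaling, and log2 fold changes as soleus against EDL, so that a negative value is higher in EDL. Positions are on Rnor_6.0. The files do not pair peaks with genes, and only the window of Myh4 is used here, with approximate ends, so other peaks are given by position. Slow-fibre markers could therefore not be read, and Myh4 was the 1 fibre-type gene against which the labels could be set. In whole muscle, fewer fibres of a type and less RNA per fibre cannot be told apart.

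The promoters of Myh4 and its upstream neighbours Myh1 and Myh2 are shown first, since peaks that were high in EDL and almost without tags in soleus lay in and around the Myh4 window. They are the RefSeq sequences of GRCr8, from 250 bases before the annotated start to 50 after it, all on the plus strand, at chr10:52421898-52422197 (Myh4), chr10:52384662-52384961 (Myh1) and chr10:52355489-52355788 (Myh2). Capitals mark TATAAA on the printed strand and the longest run of bases that all 3 share.
Myh4: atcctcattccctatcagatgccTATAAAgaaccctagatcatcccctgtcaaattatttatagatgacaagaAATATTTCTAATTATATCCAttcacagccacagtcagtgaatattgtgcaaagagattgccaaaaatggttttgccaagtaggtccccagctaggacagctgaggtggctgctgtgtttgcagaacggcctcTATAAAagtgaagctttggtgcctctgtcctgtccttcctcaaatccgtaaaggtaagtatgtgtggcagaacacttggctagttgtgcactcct
Myh1: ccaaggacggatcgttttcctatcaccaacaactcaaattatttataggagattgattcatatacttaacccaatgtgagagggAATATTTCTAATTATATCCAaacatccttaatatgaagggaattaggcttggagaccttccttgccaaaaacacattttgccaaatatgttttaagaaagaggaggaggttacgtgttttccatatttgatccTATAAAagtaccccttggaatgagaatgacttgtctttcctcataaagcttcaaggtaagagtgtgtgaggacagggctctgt
Myh2: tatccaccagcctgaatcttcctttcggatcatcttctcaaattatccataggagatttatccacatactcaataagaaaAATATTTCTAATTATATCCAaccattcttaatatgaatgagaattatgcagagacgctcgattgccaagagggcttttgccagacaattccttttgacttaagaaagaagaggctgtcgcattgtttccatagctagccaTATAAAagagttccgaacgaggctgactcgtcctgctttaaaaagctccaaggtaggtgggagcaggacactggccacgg
TATAAA began 45 bases before the annotated start in Myh4, 33 before it in Myh1 and 30 before it in Myh2, and Myh4 held a second match on this strand 227 bases before the start. The Myh4 and Myh1 promoters also held a match on the other strand, which is not capitalised. Of all 33469 promoters of the same length, 14.2% held TATAAA on either strand. The shared run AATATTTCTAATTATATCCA is 20 bases long and was found on either strand in 5 promoter entries, those of Myh4, Myh1 and Myh2 and 2 entries of LOC102555216. Both entries of LOC102555216 are on the minus strand of chromosome 10, and whether they hold separate copies of the run was not tested. The E-box CANNTG, the motif bound by the myogenic MyoD family, was in the Myh4 promoter but not in the other two, and in 72.1% of all promoters. The peaks are on another build, so which of them lie at these starts was not tested.

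The peaks of the Myh4 window were, in sum, almost absent from soleus and high in EDL. All 35 plus-strand peaks of its window were tested and all 35 were higher in EDL, where over all 9308 tested peaks 704 were (7.56%). Most of the 35 had so few soleus tags that they passed the count filter only through EDL. Their count therefore follows in part from that filter. Their summed level was 22.5, 35.6 and 6.17 CPM in the soleus of U6, U7 and U8, and 3102, 3656 and 3217 CPM in the EDL of the same rats. The muscles did not overlap, with means of 21.4 ± 14.8 against 3325 ± 293 CPM (SD, n = 3), and the fit on the sum gave a log2 fold change of −7.53 (SE 0.53). Among the single peaks, 8 had no tag in any soleus library. Their median log2 fold change was −9.63, or −8.83 with these 8 set to the floor of 3 tags over the soleus libraries. The peak at chr10:53796424-53796586 was 61.1, 83.0 and 64.4 CPM in EDL and without a tag in soleus, and was at least 746-fold higher in EDL.

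Tags in the Myh4 window were spread over many peaks. Whether each of these peaks marks a start of transcription was not tested. The window's first 2 peaks in the direction of transcription, at chr10:53778241-53778683, held 1.36% of the EDL level of the window, and the 22 peaks past its middle held 84.3%. The highest single peak, chr10:53797328-53797599, stood at 390.3, 571 and 450.5 CPM in EDL and held 14.2%. The same window had 10 peaks on the minus strand, and all 10 were also higher in EDL. Like most plus-strand peaks of the window, these passed the count filter only through EDL. Their sum was 107, 124 and 128 CPM in EDL and at most 0.363 CPM in soleus. The file headers call the tags rescued, a term for reads that match several loci and are kept, and how such tags were divided between the near-identical myosin genes is not known here, so the levels of single myosin genes are uncertain.

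**Figure D1:**
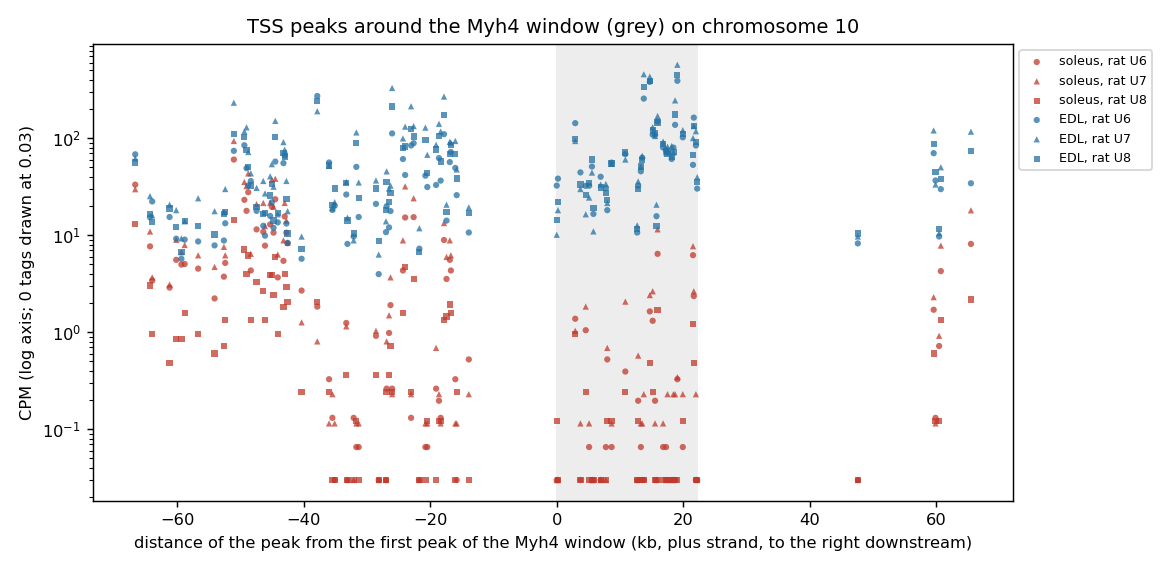
Level of each plus-strand TSS peak around the Myh4 window on chromosome 10, in CPM on a log axis, against the distance from the window's first peak in kb. Each point is a peak in 1 library (red soleus, blue EDL, a marker shape per rat), peaks with 0 tags are drawn at 0.03, and the grey band is the Myh4 window, where every EDL point lies above every soleus point of its peak.

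An array of 62 peaks lay upstream of the Myh4 window on the same strand, at chr10:53711560-53764563. An array here is a group of same-strand peaks joined over gaps of at most 10 kb. In GRCr8 the neighbours upstream of Myh4 are Myh1 and then Myh2, but the array was not assigned to either. Of its peaks 48 were higher in EDL and none in soleus. The array was split into 2 stretches after its values were seen. The first 29 peaks had log2 fold changes from −3.85 to −0.92, 15 of them called, and summed to 355, 539 and 92.8 CPM in soleus and 769.8, 1466 and 989 CPM in EDL. The soleus of U8 was low beside the other soleus libraries there. The other 33 peaks were all called, with log2 fold changes from −9.98 to −2.32, and summed to 67.1, 111 and 21.7 CPM in soleus and 1500.3, 2745 and 2115 CPM in EDL. Downstream of the window a group of 5 peaks at chr10:53837874-53843893 was also higher in EDL throughout, with 14.96, 29.2 and 4.36 CPM in soleus and 181, 331 and 255 CPM in EDL. In GRCr8 the next gene downstream is Myh8, which encodes a perinatal heavy chain. The U8 soleus library was the lowest of the 3 in each of these sums, and U7 the highest.

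Across the genome 1356 of the 9308 tested peaks were called (14.6%). A call needed a difference of more than 2.38-fold and an adjusted p below 0.05 in edgeR's quasi-likelihood test with the rat as a block. Of these 652 were higher in soleus (7%) and 704 in EDL (7.56%). With library tag totals in place of TMM the median over all peaks went from 0.02 to 0.47 on the log2 scale, and 1664 peaks were called, with 67.7% higher in soleus, against 48.1% with TMM. All 3 soleus libraries lay on 1 side of all 3 EDL libraries in 3662 tested peaks (39.3%), and in 97.3% of the EDL-higher and 96.9% of the soleus-higher calls. A difference of more than 2.38-fold either way lay outside the 95% interval of 6024 peaks (64.7%), and 1928 peaks were not called but had an interval that reached it.

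The soleus-higher peaks took 9.26%, 8.97% and 11.3% of the peak tags in the soleus of U6, U7 and U8, and 0.774% to 0.802% in EDL. The EDL-higher peaks took 14.1%, 10.3% and 11.8% in EDL and 2.24% to 2.39% in soleus. Among called peaks the 10 highest held 62.3% of the summed soleus level of the soleus-higher set and 57.3% of the EDL level of the EDL-higher set. No tag was found in any library of the lower muscle for 20 soleus-higher and 39 EDL-higher peaks. The median log2 fold changes of the sets were 2.59 and −2.69.

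**Figure D2:**
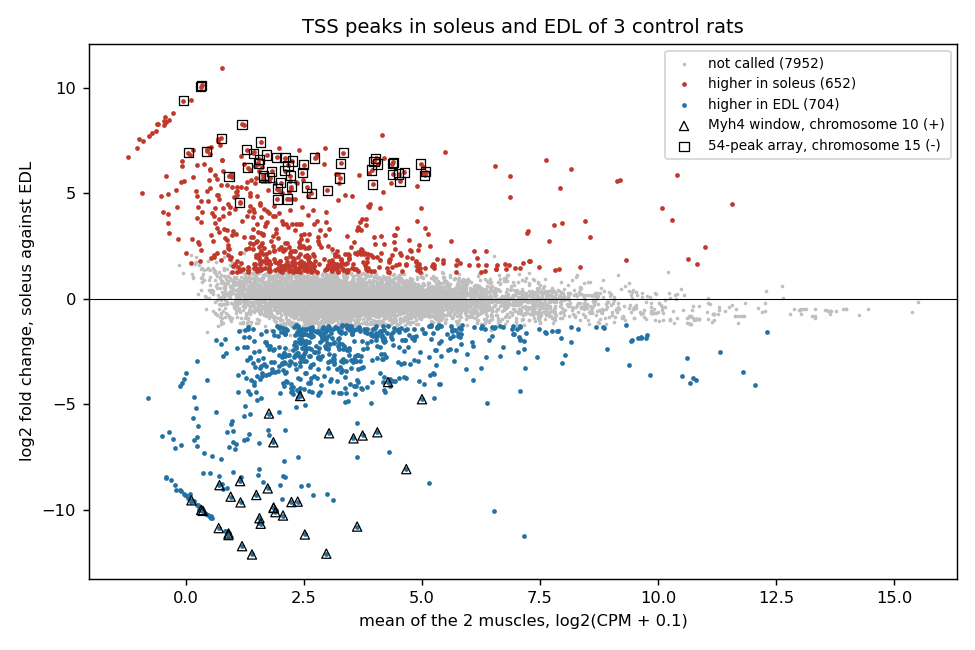
Log2 fold change of soleus against EDL for the 9308 tested TSS peaks against their mean level in both muscles, log2(CPM + 0.1). Red points are the 652 peaks called higher in soleus, blue the 704 called higher in EDL and grey those not called, and open symbols mark the Myh4 window (triangles) and the 54-peak array of chromosome 15 (squares). Triangles lie below 0 throughout and squares above 0.

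The soleus-higher peaks with the highest levels were each several times lower in EDL. Uncalled peaks reached higher levels in both muscles. The peak at chr12:39958724-39959368 (minus strand) was 14114, 14138 and 13949 CPM in soleus and 440.3, 742 and 777 CPM in EDL, a log2 fold change of 4.47 (SE 0.32, adjusted p = 0.000279). Its soleus values lay close together, and it was the highest soleus-higher peak. The peak at chr1:72889011-72889390 (plus) was 7906, 6564 and 12364 CPM in soleus and 34.9, 269 and 305 CPM in EDL. Its EDL level was lowest in U6, and the log2 fold change was 5.86 (SE 0.72, adjusted p = 0.00166). The peaks at chr8:119030685-119031041 (plus) and chr2:88135192-88135585 (minus) differed by 4.30 (SE 0.32) and 3.74 (SE 0.29), with soleus means of 4735 ± 584 and 4574 ± 852 CPM (SD, n = 3). The peak at chr8:55178466-55179112 (plus) had 5244, 4598 and 4513 CPM in soleus and 846, 701 and 1099 CPM in EDL, and differed least among these 5, by 2.46 (SE 0.25).

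The 10 largest folds were taken among soleus-higher peaks of at least 50 CPM without overlap between the muscles, at most 1 per array. They included peaks with few tags in EDL and peaks with a clear EDL level. The peak at chr5:154109163-154109434 (plus) had 242, 19.1 and 442 CPM in soleus and 0.679, 0.843 and 2.24 CPM in EDL, a log2 fold change of 7.76 (SE 0.48, adjusted p = 0.000201). The soleus of U7 was far below the other soleus libraries, yet above every EDL library. The peak at chr8:58431175-58431404 (plus) had 272, 226 and 813 CPM in soleus against 0.485, 9.27 and 3.98 CPM in EDL (log2 fold change 6.95, SE 0.79). Higher levels were reached at chr7:2912306-2912737 (minus), with 1597, 1388 and 2300 CPM in soleus and 6.69, 26.1 and 34.1 CPM in EDL, and at chr2:154033078-154033439 (minus), with 673, 694 and 775 CPM in soleus and 1.84, 17.7 and 17.4 CPM in EDL. In both of these the EDL of U6 was lowest. The other 6 of the 10 largest folds chosen in this way lay between 6.66 and 7.14 on the log2 scale.

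Peaks higher in EDL, chosen in the same way, reached larger folds. The peak at chr7:119443532-119443719 (minus) combined a high level with a nearly empty soleus, with 3.15, 2.99 and 2.30 CPM in soleus and 7348, 5880.2 and 7634 CPM in EDL. Its log2 fold change was −11.25 (SE 0.36, adjusted p = 3.39e-05). The peak at chr1:220136327-220136534 (minus) had 1.64, 3.79 and 2.90 CPM in soleus and 4169, 1799.6 and 2868 CPM in EDL (log2 fold change −10.03, SE 0.58). The peak at chr1:100530107-100530305 (minus) differed by −8.75 (SE 0.41), from 1.65 ± 0.323 to 726 ± 306 CPM, and chr5:118769140-118769955 (plus) by −8.84 (SE 0.44). A single soleus tag was found at chr13:108590444-108590656 (minus), against 83.0, 40.4 and 89.7 CPM in EDL, a ratio of 2288 with a 95% counting interval from 411 to 90383. Folds were smaller at chr7:139701775-139702115 (plus), with 17.8, 12.8 and 13.4 CPM in soleus and 606, 322 and 466 CPM in EDL, and at chr13:50874518-50874985 (plus), with 1.05, 3.45 and 3.51 against 47.7, 154 and 49.2 CPM.

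Among the peaks called higher in EDL, the highest in level was chr1:198655606-198655966 (plus), at 16950.4, 16200.2 and 18382 CPM in EDL and 806, 915 and 1459 CPM in soleus, a log2 fold change of −4.07 (SE 0.30). Next among these calls was chr3:161246218-161246427 (minus), where soleus held 1216, 1232 and 782 CPM and EDL 12088, 10514 and 13005 CPM (log2 fold change −3.49, SE 0.31). The peak at chr1:215666418-215666737 (plus) differed by −3.83 (SE 0.26), from 478 ± 66.3 to 6770.1 ± 664 CPM (SD, n = 3). These 3 peaks were well expressed in both muscles. The peak at chr9:73947803-73948932 (minus) differed least, with 2718, 2206 and 3930.3 CPM in soleus and 11223, 6569 and 8400.0 CPM in EDL (log2 fold change −1.57, SE 0.28, adjusted p = 0.00809). The call was lost without U7, where the log2 fold change was still −1.57 and the adjusted p was 0.101, and with library tag totals the log2 fold change was −1.11.

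**Figure D3:**
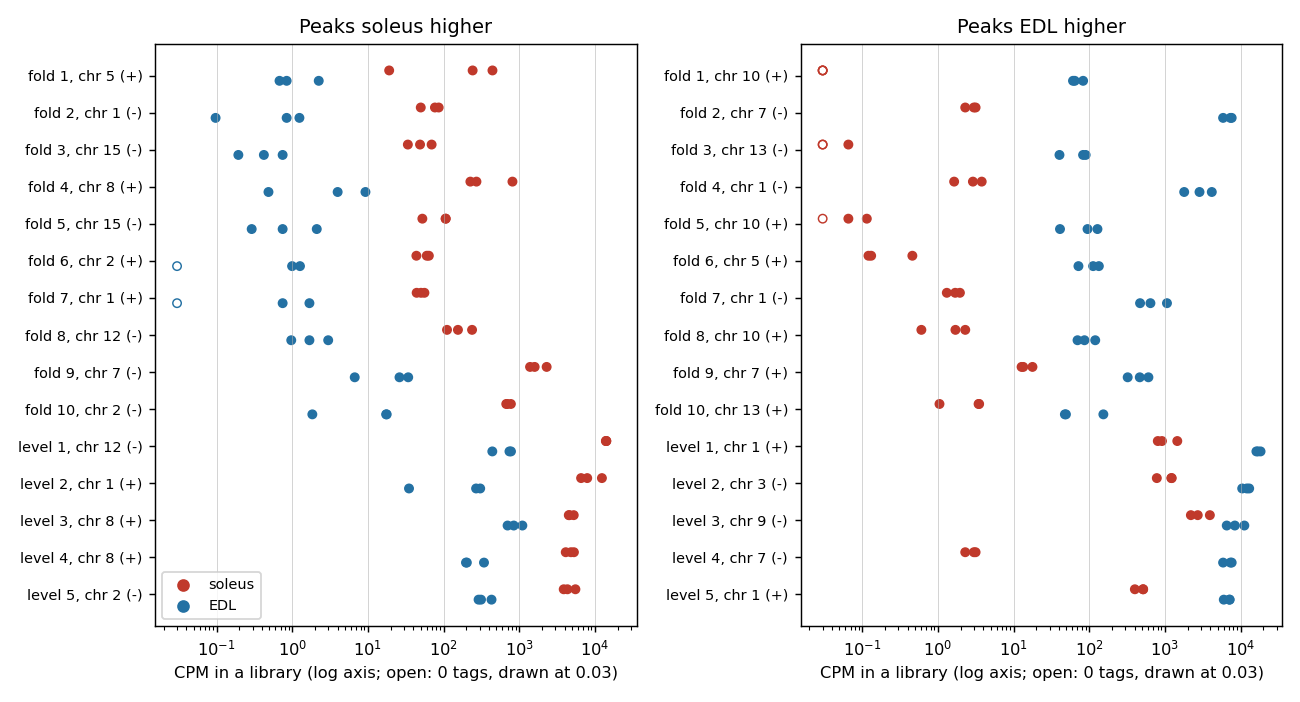
Level in CPM (log axis) of the peaks with the largest folds and the highest levels in each direction, 1 point per library, red soleus and blue EDL. Peaks are ordered by fold and then by level, labels give the chromosome and strand, and open points at 0.03 are libraries with 0 tags. In no peak do the 3 soleus points overlap the 3 EDL points. This was a condition for choosing the largest folds, but not for the highest levels.

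Many calls lay side by side. Over all tested peaks, 7328 groups were formed with the 10 kb limit, and 34 arrays with 5 or more called peaks held 369 calls (27.2%). These arrays were picked by their number of calls, so this share follows in part from the choice. Of the 6514 groups with 1 tested peak, 613 had it called. Of 139 groups with 2 or more called peaks, 137 had all calls in 1 direction. Summed over the group and scaled over the sums, 795 of 7335 tested loci were called (10.8%), 412 higher in soleus (5.62%) and 383 in EDL (5.22%). With library tag totals 1019 loci were called, 783 higher in soleus and 236 in EDL, so that the soleus share of the calls was 76.8%, against 51.8% with TMM.

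The largest array higher in soleus was on the minus strand at chr15:33607830-33657899. It had 54 tested peaks, and all 54 were called higher in soleus. The limit on such counts given for the Myh4 window applies here too, with soleus as the higher muscle. Its summed level was 3629, 4110.5 and 2160.0 CPM in soleus and 11.7, 102 and 80.6 CPM in EDL, a log2 fold change of 6.01 (SE 0.72). The strongest of its peaks held 7.34% of the soleus level, so that, as in the Myh4 window, no single peak led. Whether the array belongs to 1 gene was not tested. Next in number were 12 soleus-higher peaks at chr12:39587205-39603279 (plus), with 319, 347 and 205 against 2.4996, 16.4 and 17.3 CPM, and 10 at chr1:72889011-72899711 (plus), which held the second highest soleus-higher peak. Arrays of 7 and 6 peaks at chr13:52624643-52637270 and chr16:7291921-7295390 (both plus) were higher in soleus at every peak, by 5.57 (SE 0.39) and 5.57 (SE 0.52) in sum. On the plus strand at chr2:189423299-189442606, 8 of 9 tested peaks were soleus-higher, and the sum was 2555, 2016 and 2775 CPM against 22.2, 81.2 and 65.8 CPM. In this and the other soleus-higher arrays with values given here, the EDL of U6 was the lowest library.

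Among EDL-higher arrays, all 20 peaks at chr1:197855948-197875279 (minus) were called, and the sum was 8598, 5955 and 6668 CPM in EDL and 722, 501 and 331 CPM in soleus (log2 fold change −3.82, SE 0.27). All 10 peaks at chr1:221756131-221771094 (plus) were called, with a sum of 7399.9, 5380.3 and 6270.1 CPM in EDL and 1232, 1106 and 908 CPM in soleus (log2 fold change −2.55, SE 0.23). All 8 peaks at chr1:220120948-220136534 (minus) were nearly empty in soleus, at 1.67, 3.75 and 2.93 CPM in sum against 4242, 1964 and 3029.9 CPM in EDL. The 5 peaks at chr7:119428695-119443719 (minus) summed to 4.07, 4.77 and 3.04 CPM in soleus and 7605, 6429 and 8099 CPM in EDL. On the minus strand of chromosome 8 at chr8:72820322-72841671, 8 of 9 peaks were EDL-higher and the ninth had a log2 fold change of 0.15.

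In most arrays 1 peak led. The strongest peak held more than 50% of the level of the higher muscle in 23 of the 34 arrays, and in 18 of these it was also the first peak in the direction of transcription. Its share was 98.7% at chr1:198655606-198658542, 98.1% at chr12:39953639-39966615 and 97.6% at chr13:52624643-52637270. The lowest shares were 7.34% and 7.35%, in the chromosome 15 array and in the array upstream of Myh4. Arrays were joined by distance alone, and a low share can also come from peaks of several genes in 1 array.

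Peaks on opposite strands also moved together. Of 690 pairs of tested peaks on opposite strands within 500 nt, 82.8% had log2 fold changes of the same sign. Both peaks were called in 108 pairs, and all 108 had the same direction. By chromosome, the share called was highest on chromosome 15 (31.3%), with 78 soleus-higher and 16 EDL-higher peaks, 54 of the former in the array above. Of 824 tested peaks on chromosome 10, 141 were EDL-higher (17.1%, against 7.56% of all tested peaks) and 22 soleus-higher (2.67%, against 7%). The EDL-higher ones included the 48, 35, 10 and 5 called peaks of the upstream array, the Myh4 window on both strands and the downstream group.

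The muscles differed in which peak of a group they used in 84 of 814 groups with 2 or more tested peaks (10.3%), by edgeR's diffSpliceDGE at an adjusted p under 0.05. Groups were joined by strand and distance alone, so a group can hold peaks of more than 1 gene. Whether a usage call lies between starts of 1 gene or between genes was not tested. Of these 84, 47 were not called in sum. The count depended on rat U6, and was 46 without it. It also depended on the gap that joins peaks, with 34 of 579 groups (5.87%) at 2 kb and 251 of 1438 (17.5%) at 50 kb. The smallest p was that of 12 peaks at chr15:4064449-4084255 (plus), 1 of the 2 groups with calls in both directions (adjusted p = 6.97e-14). The peak at chr15:4069082-4069615 had 51.7, 42.2 and 95.8 CPM in soleus and 1.45, 1.26 and 1.24 CPM in EDL, and made up 19.1% to 31.9% of the group in soleus and 0.150% to 0.203% in EDL. Further downstream chr15:4076879-4077181 had 32.2, 32.3 and 25.4 CPM in soleus and 672, 495 and 671 CPM in EDL. All 5 soleus-higher calls lay upstream of all 4 EDL-higher calls, and the first peak of the group (chr15:4064449-4064764) was not called, at 96.0 ± 24.9 CPM in soleus and 69.6 CPM in EDL on average.

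**Figure D4:**
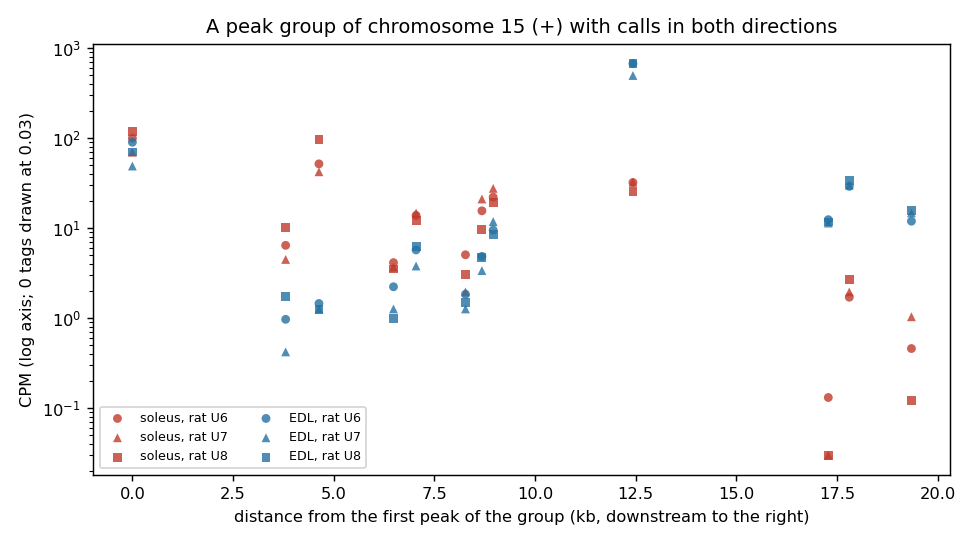
Level in CPM (log axis) of the 12 tested peaks of the plus-strand group on chromosome 15 against their distance from the group's first peak in kb. Each point is 1 library (red soleus, blue EDL, a marker shape per rat) and 0 tags are drawn at 0.03. Soleus points lie above EDL points from the second to the eighth peak and below them in the last 4 peaks.

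The other 2 groups with the smallest p were large ones. Among 101 peaks at chr3:37658128-37855961 (minus), the sum was not called, with a log2 fold change of 0.28 (SE 0.21, adjusted p = 0.37). Of the 101 peaks in this group 5 were soleus-higher, a share below the 7% of all tested peaks. The peak at chr3:37698882-37698962 in it had 26.2, 24.9 and 17.8 CPM in soleus and 0.582, 5.06 and 1.99 CPM in EDL, and chr3:37792036-37792099 was its contrast, at 16.9, 16.3 and 11.4 against 8.82, 36.2 and 18.1 CPM. The muscles overlapped there, its own usage was not called (adjusted p = 0.711), and its log2 fold change of −0.28 changed sign without U7 (0.1631) and with tag totals (0.17). The other group was the array upstream of Myh4, in which chr10:53757464-53757564 held 1.81% to 3.06% of the EDL level and at most 0.0177% of the soleus level.

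Within single peaks the most used position rarely differed. Of 2700 peaks with at least 50 tags in each of the 6 libraries, 1694 (62.7%) had the same dominant position in all 6. In 43 (1.59%) the soleus positions lay at least 10 nt to 1 side of all EDL positions, 17 of them upstream in soleus and 26 downstream. With 1 rat left out the count was 116 of 2700 (4.30%, without U6), 168 of 4006 (4.19%, without U7) and 88 of 2802 (3.14%, without U8), where fewer libraries have to lie apart and to reach 50 tags. Of the 43, 11 were also apart by the tag-weighted median position. The widest gaps, 763 nt at chr4:15707022-15710048 (minus), 483 nt at chr3:53656238-53658064 (plus) and 445 nt at chr1:11963597-11965004 (plus), were in broad peaks where the dominant position held 3.54% to 9.23% of the tags. None of these peaks was also apart by the tag-weighted median position. A sharper case, chosen after its values were seen, was chr18:52559807-52560241 (minus). There 60% to 67.8% of the EDL tags began at position 52559947, and 37.7% to 44.8% of the soleus tags at 52560140, which is 193 nt upstream. No test was run on positions, since 3 rats cannot reach p under 0.05 in an exact test.

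The within-rat differences of the 3 control rats had the same sign in 5364 of the 9308 tested peaks and in all 1356 called peaks, which were chosen on these rats. The range of the difference over rats had a median of 1.07 on the log2 scale among called peaks and 0.70 among all tested peaks. The called peaks were then read in the other 18 rats, which the calls had not used. These rats were unloaded or recovering, and in 13 of 18 both muscles shared a lane. From here on, differences within rats are of log2 CPM with a prior count of 2. Unless tag totals are named, TMM was taken over all 42 libraries. Values of control rats can therefore differ from the fitted log2 fold changes. In 769 peaks (56.7%) the sign was the same in all 18 rats, 464 of 704 EDL-higher (65.9%) and 305 of 652 soleus-higher (46.8%). With library tag totals these were 422 (59.9%) and 328 (50.3%), so the gap between the directions depended on the scaling. Over all peaks and rats, 93.2% of EDL-higher and 89.1% of soleus-higher signs were kept. With tag totals these shares were 90.8% and 91.1%. Per rat, 84.7% to 97.1% of called peaks kept their sign. The median difference of the soleus-higher peaks was 2.39 to 2.71 in control rats and 1.24 to 2.44 in the others, and that of the EDL-higher peaks −2.75 to −2.31 in controls and −3.57 to −1.60 in the others. The peaks were chosen in the control rats, and the part of that choice and of the treatment in these gaps was not tested. All 3 rats of a phase had the opposite sign in 65, 66 and 39 peaks during unloading (D1, D3, D7) and in 51, 5 and 8 peaks during recovery (R1, R3, R7).

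**Figure D5:**
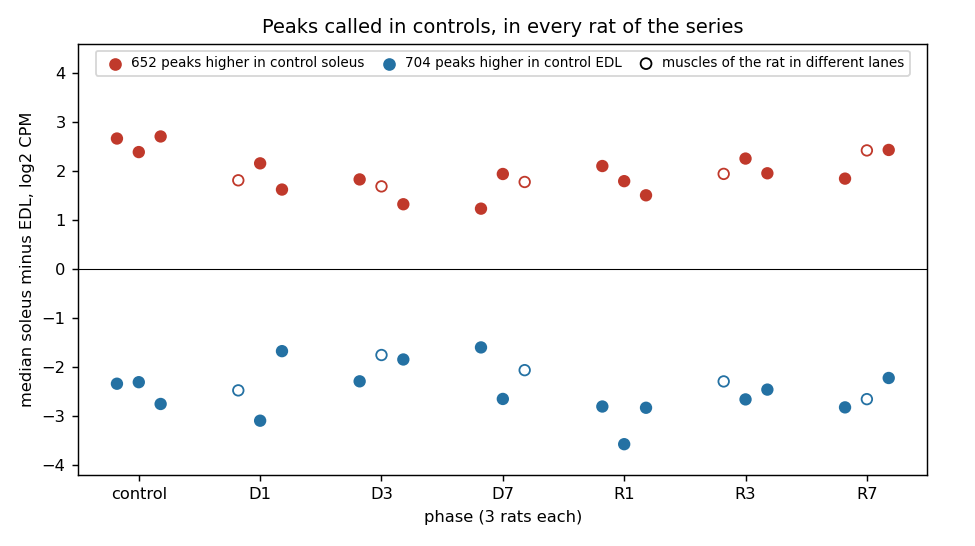
Median soleus minus EDL difference in log2 CPM over the 652 soleus-higher (red) and 704 EDL-higher (blue) peaks, for each of the 21 rats by phase. Open points are rats whose muscles were sequenced in different lanes, and the red medians stay above 0 and the blue ones below 0 in every rat.

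Of the 29 peaks named by fold or level, 26 had the control sign in all 18 rats. The highest soleus-higher peak, chr12:39958724-39959368, had a mean difference of 4.604 in controls and 0.58 at R1, with the control sign in 17 of 18 rats. The highest EDL-higher peak, chr1:198655606-198655966, went from −3.93 in controls to −7.21 at R1 and −1.39 at R7, with the same sign in 18 of 18. The Myh4 window peak chr10:53796424-53796586, which had no soleus tag in controls, was EDL-higher in all 18 rats. The peak at chr13:50874518-50874985 kept its sign in 13 rats and chr8:55178466-55179112 in 12.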

How the data were processed

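The authors made CAGE libraries without amplification from soleus and EDL of mature Wistar rats, trimmed single-end reads, mapped them to Rnor_6.0, and clustered tag starts into TSS peaks. Per the labels the tools include Trimmomatic 0.38, BWA and HISAT2, while the methods of the study name another aligner, and which one made the files was not settled. The deposited values used are raw tag counts per peak and per position, which the file headers call rescued counts, and the 42 normalized columns were not used. Peaks with low counts were removed by filterByExpr, and the rest were tested in edgeR 4.0.16 (R 4.3.3) by the quasi-likelihood test with rat and muscle as terms, TMM scaling and Benjamini-Hochberg adjustment over all tested peaks. SE was the absolute log2 fold change divided by the square root of F. Peaks were called at an adjusted p below 0.05 where the fold exceeded 2.38.

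The U number marks 1 rat that gave both muscles, and the deviations of its libraries correlated at 0.28, 0.42 and 0.03 over 9308 peaks in U6, U7 and U8. Between different rats they ran from −0.483 to 0.311, the highest for U8 soleus with U6 EDL, so that the pairing rests on the shared animal and not on these values. Named peaks are the 10 largest folds with at least 50 CPM and no overlap and the 5 highest levels in each direction, at most 1 per group joined over 10 kb, the peaks of the Myh4 window (a second window is not reported here), the 3 groups with the smallest usage p with 2 peaks each, and the 3 widest gaps in dominant position. The members and lists were chosen with earlier results of these data known. Lists of slow, fast, metabolic and regulator genes and cell type markers need an annotation of Rnor_6.0 and were not analysed here. The fits were tested on simulated data. DESeq2 1.42.0, other scalings, filters, gaps, count minimums, thinning and each rat left out were the alternatives. Intervals of fitted log2 fold changes include the variation between rats, while counting intervals and floors cover counting error only.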

Additional observations from a re-analysis of the deposited data

Results flagged for a closer look

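The soleus-higher peak at chr8:55178466-55179112 (plus strand) had opposite signs in control rats and in rats unloaded for 3 or 7 days. The soleus minus EDL difference in log2 CPM was 2.73, 2.84 and 2.21 in control rats, with a mean of 2.59. It was −0.88, −1.82 and −0.47 at D3 (mean −1.06) and −0.22, −0.49 and −0.21 at D7 (mean −0.31). Every control rat was above 0 and every D3 and D7 rat below it, while all 3 rats unloaded for 1 day were above 0 (0.97, 0.62 and 0.77) and the mean at R1 was 3.48. The difference between the phases was not tested. With tag totals the median over all control peaks went from 0.02 to 0.47, a shift near the size of the D7 values. The D7 values are not given with that scaling. Control libraries were in lane 1, and D3 and D7 libraries in lanes 2, 3 and 6, with the muscles of U10 and of U3 in different lanes.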

How the results depend on the processing

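The number of called peaks was 1356 and stayed within 1.5 times of it under the other scalings, filters and tools, from 1252 with libraries thinned to the shallowest to 1664 with library tag totals, and from 1177 to 1398 with 1 rat left out. It was 2083 with no limit on the fold and 878 with a limit of 2 on the log2 scale. Without the replicate block, so without the pairing by rat, 1312 peaks were called, 1279 of them shared, with 748 loci and 77 groups for usage. Called loci ranged from 605 with a gap of 50 kb to 1019 with tag totals. Groups called for usage numbered 34 with a gap of 2 kb, 251 with 50 kb, 44 with at least 10 counts and 46 to 82 with 1 rat left out. Peaks with a moved dominant position numbered 79 with at least 20 tags, 10 with 200, 69 with a gap of 1 nt, 24 with 50 nt and 88 to 168 with 1 rat left out. The sign in all other 18 rats was kept by 769 peaks, and by 750 with tag totals. A smaller prior count also gave 769, but it is scaled to each library and cannot change a sign.

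Uncalled peaks changed sign in 8 values. The log2 fold change of chr1:11963597-11965004 was 0.14 with tag totals. That of chr3:53656238-53658064 was 0.0716 with all 42 libraries, 0.0757 with these and the replicate block, 0.0367 thinned and 0.41 with tag totals, and ran from −0.1425 to 0.0147 with 1 rat left out (above 0 without U8). That of chr3:37792036-37792099 was 0.17 with tag totals and ran from −0.9091 to 0.1631 with 1 rat left out (above 0 without U7). Of 890 values for 81 named peaks 876 kept direction and side of the threshold, and of 374 for the 34 arrays 366 did. The EDL library of U7 was the shallowest, with 4488404 tags, so that counting error was largest there.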
